A study of Mus musculus with 6 samples.

Results

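After lung injury by bleomycin, 464 regions of the genome carried a Runx1 peak at day 14 (D14) and again at day 56 (D56) and none in sham-injured lungs. They are candidate memory sites, places where Runx1 was called only after injury and was still called weeks later. Runx1 occupancy was measured with ChIP-seq (immunoprecipitation of chromatin followed by sequencing) in fibroblasts of Col1a2-CreERT2;mTmG mice, in which Cre driven by the collagen gene Col1a2 switches cells to green fluorescence, and the 3 groups all carry these alleles. The sham group was sham-injured, and the others were collected 14 and 56 days after bleomycin. Each group had 1 Runx1 ChIP library and 1 input library, and how many mice went into each is not given in the labels. The members were chosen by the peak calls themselves: peaks of the 3 lists on chromosomes 1 to 19 were merged where they shared 1 bp or more, and a region was taken when it held a D14 and a D56 peak and no sham peak. Of 56619 merged regions, 464 met the rule (0.820%), and they were 1.42% of the 32650 regions with a D14 peak and no sham peak. The remaining 32186 of these are called D14-only regions below, 8433 regions had sham and D14 peaks without a D56 peak, and 13454 had a peak in all 3 lists. With no replicates there is no test between conditions and no p-value. Shares carry 95% Wilson intervals, which cover counting error only.

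Runx1 is a DNA-binding transcription factor of the Runt family. It pairs with Cbfb, which strengthens its grip on DNA, and it can activate or repress a gene depending on the partners it meets. In fibroblasts the family is known for its part in mesenchymal differentiation and in the response to TGF-beta. Bleomycin causes an acute lung injury followed by fibrosis, and in mice the scar partly resolves over the following weeks.

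Tag totals were 48816721 for the sham ChIP library and 39609538 for its input, and 78744701 for the D14 ChIP library and 49312043 for its input. The D56 pair held 49669125 and 19949187. The D14 list was the longest, with 55378 peaks, against 24611 in sham and 14704 at D56. Whether a missing sham or D56 peak reflects a lost site or a shorter list cannot be told apart here. Of 8 fibroblast marker genes, 7 had a sham region in the gene or within 10 kb, against 4 of 7 endothelial, 3 of 8 myeloid, 3 of 8 lymphocyte, 4 of 8 epithelial, 0 of 4 mesothelial and 3 of 5 mural cell markers. Over all protein-coding genes the share was 62.3%. No marker of any of these types had a kept region, where 2.37% of all protein-coding genes had one, so nothing about cell types is read from that.

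The promoters shown here belong to genes whose start lies inside a kept region. Nipal1, Ndufab1, Pcsk5, Fam8a1 and Cenpw had the highest D14 folds among them, and Kif18b, Plod1 and Serpine2 were chosen after their values were seen, as examples from mitosis and the extracellular matrix. Each run is the 250 bases that end just before the start, 5′ to 3′ on the gene's strand, from RefSeq on build GRCm38.p6. Capitals mark the RUNX hexamers TGTGGT or TGCGGT on either strand. Nipal1 lies at chr5:72647546-72647795 (plus strand), Ndufab1 at chr7:122101849-122102098 (minus), Pcsk5 at chr19:17837633-17837882 (minus) and Fam8a1 at chr13:46669227-46669476 (plus). Cenpw lies at chr10:30200541-30200790, Kif18b at chr11:102925125-102925374, Plod1 at chr4:147936777-147937026 and Serpine2 at chr1:79858666-79858915, all on the minus strand.
Nipal1: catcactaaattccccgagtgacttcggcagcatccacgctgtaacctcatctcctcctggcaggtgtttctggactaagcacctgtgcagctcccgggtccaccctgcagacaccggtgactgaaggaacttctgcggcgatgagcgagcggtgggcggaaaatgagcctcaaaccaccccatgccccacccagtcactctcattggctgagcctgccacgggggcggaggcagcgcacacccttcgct
Ndufab1: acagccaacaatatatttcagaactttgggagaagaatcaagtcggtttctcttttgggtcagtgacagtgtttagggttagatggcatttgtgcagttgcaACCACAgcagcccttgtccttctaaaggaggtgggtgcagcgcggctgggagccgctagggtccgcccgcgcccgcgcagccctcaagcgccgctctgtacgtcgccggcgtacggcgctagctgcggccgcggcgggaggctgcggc
Pcsk5: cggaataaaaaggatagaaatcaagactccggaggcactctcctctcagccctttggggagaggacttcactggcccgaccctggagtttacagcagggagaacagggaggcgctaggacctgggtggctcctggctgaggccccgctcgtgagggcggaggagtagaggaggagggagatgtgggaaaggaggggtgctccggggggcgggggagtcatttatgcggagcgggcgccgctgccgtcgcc
Fam8a1: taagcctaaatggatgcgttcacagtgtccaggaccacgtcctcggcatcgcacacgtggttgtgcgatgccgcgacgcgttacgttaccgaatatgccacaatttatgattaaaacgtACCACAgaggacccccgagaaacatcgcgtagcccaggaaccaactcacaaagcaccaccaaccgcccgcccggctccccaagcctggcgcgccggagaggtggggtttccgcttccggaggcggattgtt
Cenpw: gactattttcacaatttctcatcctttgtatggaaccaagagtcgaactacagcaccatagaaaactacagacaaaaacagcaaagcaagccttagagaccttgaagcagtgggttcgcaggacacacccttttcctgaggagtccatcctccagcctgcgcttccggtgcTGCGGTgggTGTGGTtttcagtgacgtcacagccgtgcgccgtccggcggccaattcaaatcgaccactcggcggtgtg
Kif18b: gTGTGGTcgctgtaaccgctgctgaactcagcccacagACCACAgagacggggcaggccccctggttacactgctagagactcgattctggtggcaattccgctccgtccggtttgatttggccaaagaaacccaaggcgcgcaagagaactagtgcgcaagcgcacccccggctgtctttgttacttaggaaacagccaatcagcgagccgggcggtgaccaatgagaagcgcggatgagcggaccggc
Plod1: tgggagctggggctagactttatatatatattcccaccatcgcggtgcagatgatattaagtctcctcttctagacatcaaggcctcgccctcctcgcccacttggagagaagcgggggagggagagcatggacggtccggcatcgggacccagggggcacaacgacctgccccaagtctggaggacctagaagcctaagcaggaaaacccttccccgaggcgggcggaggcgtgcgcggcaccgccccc
Serpine2: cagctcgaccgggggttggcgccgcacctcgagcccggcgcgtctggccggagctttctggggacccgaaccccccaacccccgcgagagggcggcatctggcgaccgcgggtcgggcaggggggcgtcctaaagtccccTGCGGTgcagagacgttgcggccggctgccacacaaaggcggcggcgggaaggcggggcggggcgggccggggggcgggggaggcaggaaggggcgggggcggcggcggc
The Cenpw run holds a TGCGGT and a TGTGGT a few bases apart, and the Kif18b run holds 2 hexamers near its far end. The Ndufab1, Fam8a1 and Serpine2 runs hold 1 each. The Nipal1, Pcsk5 and Plod1 runs hold none.

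Most kept regions lay above the median fold of the D14 list and below that of the D56 list. Regions in all 3 lists had higher medians in both, 13.3 at D14 and 7.03 at D56. Fold enrichment is the ratio of the ChIP signal at a summit to its local background, computed by the authors within each list, so D14 and D56 folds are not on a common scale. In the D14 list the kept regions had a median fold of 7.76 (range 2.26 to 21.2), beside 5.67 over all D14 peaks, and 345 of 464 lay above that list median. In the D56 list their median was 5.23 (range 2.78 to 11.6), beside 6.78 over all D56 peaks, and only 28 of 464 lay above it. The D56 pileup, the height of the fragment signal, ran from 10 to 34 with a median of 14, and 10 was also the lowest pileup of any D56 peak on these chromosomes. These values took part in the choice of members and are given as a description. Folds in the 2 lists were loosely related across the 464 regions (Spearman's rho 0.14), with peaks of each list sharing a library.

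**Figure D1:**
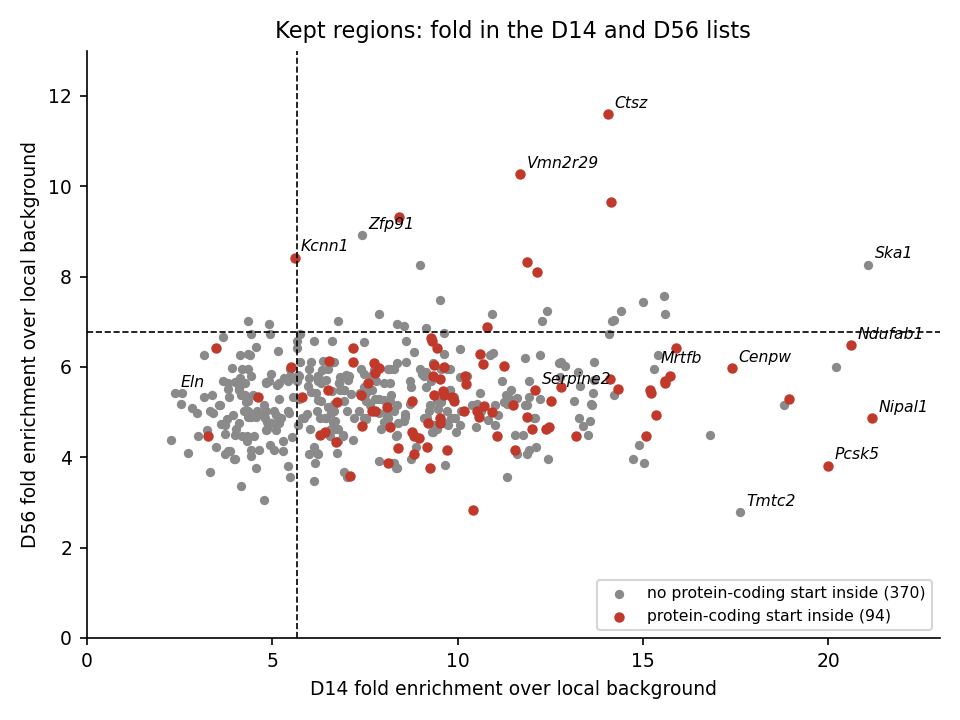
Fold enrichment of each of the 464 kept regions in the D14 list (horizontal) and the D56 list (vertical). Red points hold a protein-coding start (94 regions), grey points do not or have no start in use here, and dashed lines are the medians of all peaks of each list, 5.67 and 6.78. Most points lie to the right of the D14 median and below the D56 median.

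The share of regions with a D56 peak was larger at higher D14 folds. Among D14 regions without a sham peak, 93 of 18503 (0.503%) had a D56 peak at a D14 fold up to 5, and 23 of 88 (26.1%, interval 18.1 to 36.2) at a fold above 15. Regions that also had a sham peak followed the same order at a higher level, from 17.4% at a fold up to 5 to 96.9% above 15. At each step of D14 fold, then, a region called in sham had a D56 peak more often than one that was not. Both the D14 and D56 calls enter the rule, so these shares are a description. Seen from D56, 13510 of its 13996 regions had a sham peak, and of the 486 that did not, 464 (95.5%, interval 93.2 to 97.0) had a D14 peak. Of the 13510 with a sham peak, 13454 (99.6%, 99.5 to 99.7) had a D14 peak, so nearly all D56 regions of either kind had one.

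**Figure D2:**
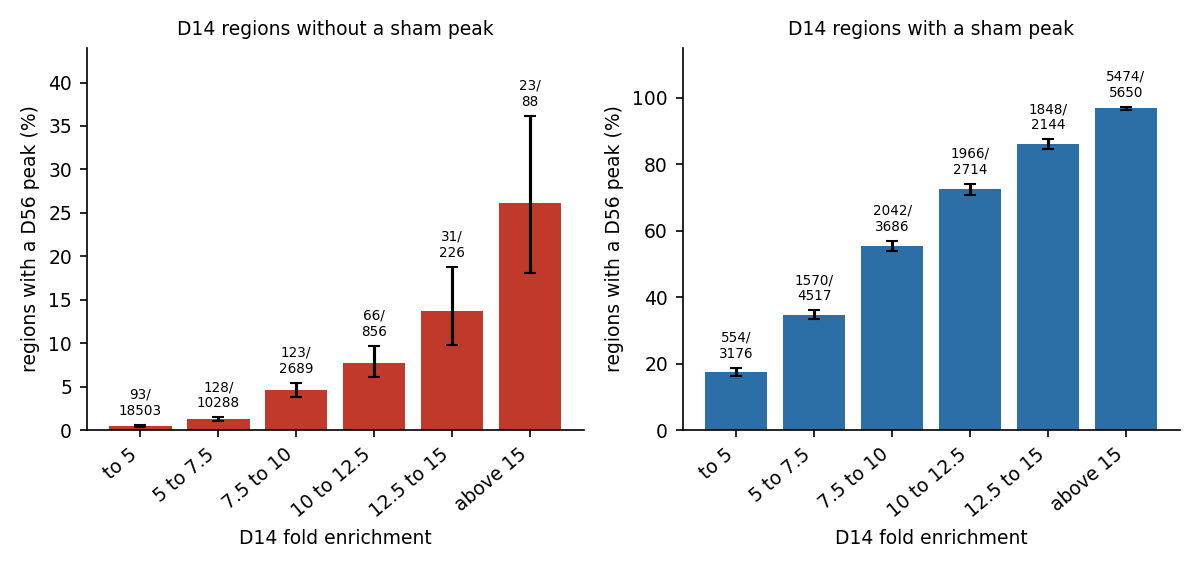
Share of D14 regions with a D56 peak (vertical, %) by D14 fold enrichment (horizontal), without a sham peak (left) and with one (right). Bars are shares, error bars 95% Wilson intervals, and the numbers above are regions with a D56 peak over all regions. The axes of the panels differ: the left reaches 26.1% and the right 96.9%.

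D14 and D56 peaks of a kept region had summits close together. Their summits were a median of 28.5 bp apart, and in 423 of 464 regions (91.2%) within 100 bp. The rule asks for 1 bp of overlap. Because both peaks must meet, their lengths, given below, limit the summit distance without fixing it, so it is given as a description. In the regions called in all 3 lists the median distance between D14 and D56 summits was 27.0 bp. The D56 peak lay wholly inside the D14 peak in 361 of the 464 regions, with median lengths of 181.5 bp at D56 and 335.5 bp at D14, and only 2 regions held more than 1 D14 peak.

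Kept regions sat at gene starts more often than regions seen at D14 alone. Position was not used by the rule. Chromosome 18 start sites were not used here, which leaves 453 kept regions. On the other chromosomes the starts of 16457 of 20154 protein-coding genes were used, so start-site shares are undercounts in every class. An end of a gene without a start in use lay within 1 kb of a further 5.30% of kept and 2.74% of D14-only regions. A start lay within 1 kb of 141 of them (31.1%, interval 27.0 to 35.5), against 14.2% (13.8 to 14.6) of D14-only regions, 20.5% of regions in sham and D14 and 54.9% of regions in all 3 lists. The difference from D14-only regions was 16.96 percentage points (Newcombe interval 12.9 to 21.4). A start lay inside the region in 21.9% of kept and 5.69% of D14-only regions. Counted with either annotated end of a gene, on chromosomes 1 to 19, 183 of 464 kept regions (39.4%, interval 35.1 to 43.96) were within 1 kb, against 19.9% of D14-only regions.

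D14 strength moved with position as well: from the lowest to the highest step of D14 fold, the share near a start rose in each of the 4 classes. Within the 6 steps the kept share was above the D14-only share each time, and the intervals were apart in 4. At a fold of 7.5 to 10 it was 34.7% (26.8 to 43.5) of 121 kept regions against 20.1% (18.6 to 21.8) of 2469 D14-only regions. Above 15 it was 81.8% (61.5 to 92.7) of 22 against 28.1% (18.6 to 40.1) of 64, and regions in all 3 lists had 76.8%. The intervals overlapped at folds up to 5 (15.6% against 13.1%) and at 12.5 to 15 (31.0% against 28.4%). At 5 to 7.5 the shares were 23.8% and 13.5%, and at 10 to 12.5 they were 43.1% and 24.1%. Regions in all 3 lists had 10.5% up to 5, 22.3% at 5 to 7.5, 33.4% at 7.5 to 10 and 49.6% at 10 to 12.5. Each of these lay inside the interval at kept regions, as did the 76.8% above 15. At 12.5 to 15 regions in all 3 lists had 60.4%, above the kept interval (17.3 to 49.2). A share above that of D14-only regions was thus not particular to kept regions.

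**Figure D3:**
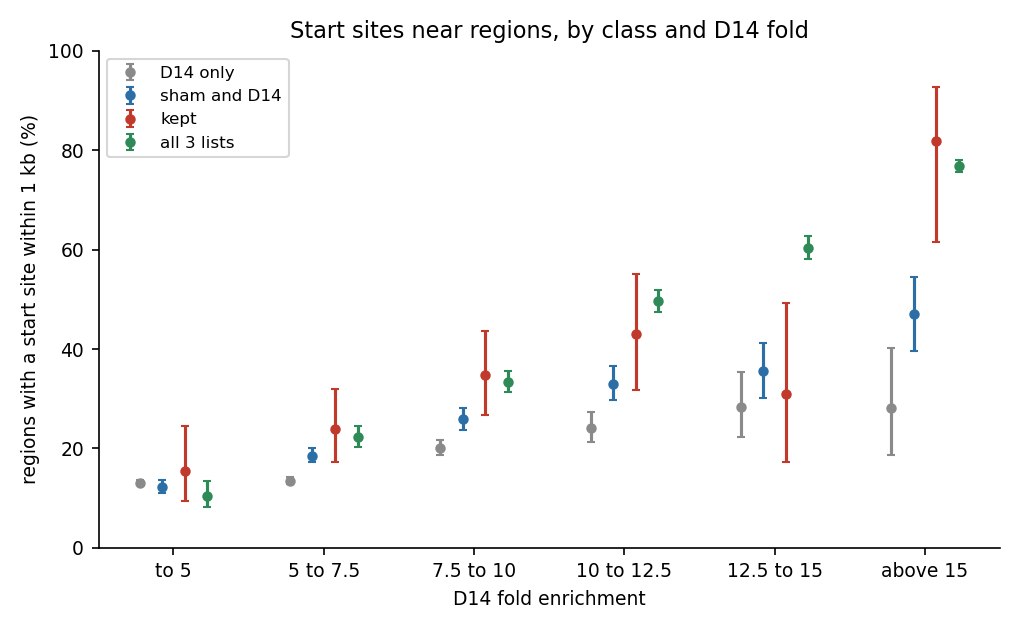
Share of regions with an annotated start within 1 kb (vertical, %) by D14 fold enrichment (horizontal) for 4 classes of region. Points are shares and bars 95% Wilson intervals. Kept regions (red) lie above D14-only regions (grey) in every step and reach 81.8% above a fold of 15.

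In the 94 kept regions that hold a protein-coding start, the summits lay close to it, which the choice of regions with a median width of 445.5 bp largely sets. The D14 summit was within 100 bp of a start in 80 of 94 (85.1%, interval 76.5 to 90.9), beside 82.8% of the D14-only regions that hold one and 71.0% of the wider regions in all 3 lists. Its median position was 14 bp upstream (-14.0 bp), and that of the D56 summit 29 bp upstream (-29.0 bp). Of the 453, a further 35 regions lay within 1 kb of a start in use here, 163 elsewhere in a protein-coding gene body, 56 within 10 kb of one, 78 at 10 to 100 kb and 27 (5.96%) beyond 100 kb. Regions at genes without a start in use are counted with the gene bodies. The median D14 fold was 9.63 for regions holding a start and 7.53 for those in gene bodies, while the D56 medians were 5.33 and 5.17. The table used here holds no exons, so exons and introns were not told apart.

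**Figure D4:**
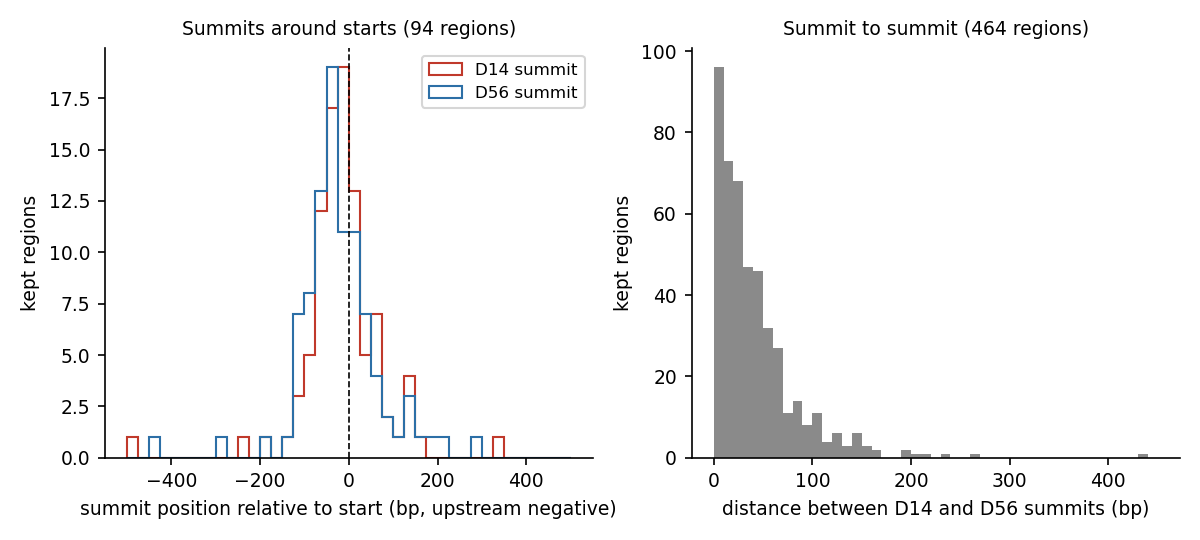
Left, positions of the D14 (red) and D56 (blue) summits relative to the start, in bp with upstream negative, for the 94 kept regions that hold a protein-coding start (vertical, number of regions). Right, distance between the D14 and D56 summits in all 464 kept regions; the median is 28.5 bp.

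Some genes of cell division were among the members with the highest D14 folds. The 25 highest ran from 14.9 to 21.2, and 13 of the 24 outside chromosome 18 held a protein-coding start. The highest lay over the start of Nipal1, a member of a magnesium transporter family, with a fold of 21.2 at D14 and 4.86 at D56. The next lay over an annotated end of Ska1 (chr18:74207663-74208017), whose protein couples kinetochores to spindle microtubules, with 21.1 and 8.26. Cenpw, a histone-fold protein of the inner kinetochore, held a region over its start (chr10:30200264-30200781) with 17.4 and 5.97, and its nearest sham peak was 297607 bp away. Bub1, the spindle checkpoint kinase, had 10.22 and 5.61 at its start. Thus 3 of 43 kinetochore and centromere genes had a kept region (6.98%), beside 489 of 20665 protein-coding genes (2.37%). With only 3 genes, and a list chosen with earlier results of these data known, no excess is read from this, and it was not tested. Of the 43, 41 had a sham region in the gene or within 10 kb, beside 62.3% of all protein-coding genes. Among the 3, Ska1 had 2 such sham regions, Bub1 had 1 and Cenpw had 0. Kif18b, a mitotic kinesin, and Lmnb1, which encodes lamin B1, lay outside that list. Kif18b, chosen after its values were seen, had 14.1 and 5.73 over its start. The region in Lmnb1 had 12.4 and 7.23 and lay 692 bp from a sham peak. Of 40 cyclin, CDK and replication genes none had a kept region.

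Strong members also lay at 2 complex I genes and at a pair of proteasome genes. The proteasome pair was grouped after its values were seen, and no list of proteasome genes was counted. Ndufab1, the acyl carrier protein of mitochondria and a complex I subunit, held a region over its start (chr7:122101516-122102155) with 20.6 at D14 and 6.48 at D56. A region shared by Ndufaf5, a complex I assembly factor, and the neighbouring Esf1 had 14.1 and 9.65. These were 2 of 42 complex I genes (4.76%), beside 2.37% of all protein-coding genes. Both Ndufab1 and Ndufaf5 had no sham region within 10 kb, while 38 of the 42 complex I genes had one. Psmd6, a subunit of the proteasome cap, had 15.7 and 5.81 over its start, and the region in Psmb7, a subunit of its core, had 14.9 and 4.27. Among other starts, Chrna7, a subunit gene of a nicotinic acetylcholine receptor, had 15.9 and 6.41, and Yes1, a Src-family kinase gene, had 15.6 and 5.68. None of 73 cytosolic ribosomal protein genes had a kept region and all 73 had a sham region, beside 2.37% and 62.3% of all protein-coding genes.

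The D56 ranking was led by other genes. Ctsz, which encodes the lysosomal protease cathepsin Z, had the highest D56 fold of all members (11.6, with 14.0 at D14), over its start at chr2:174438714-174439280. Vmn2r29, a vomeronasal receptor gene, followed with 10.3 at D56, then the Ndufaf5 and Esf1 region, then a region over the start of Jmjd7 next to Mapkbp1 with 9.32. Zfp91 had 8.92, Kcnn1, a potassium channel gene, 8.42, and Ankle1, a nuclease gene, 8.33. The Zfp91 region lay 419 bp from a sham peak. Of the 25 highest by D14 fold, Ska1, Armc2 and Cd9 were also among the 15 highest by D56 fold. Anxa1, the annexin that dampens inflammation, had a region 2886 bp away with 14.4 and 7.24. Hs6st1, which sulfates heparan sulfate, had one 3202 bp away with 8.996 and 8.26.

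Few genes of the fibrotic programme itself were members. Of 18 fibrotic fibroblast markers, 29 TGF-beta and BMP genes, 18 AP-1 genes, 20 inflammatory genes, 19 growth factor receptors, 15 YAP and TEAD genes and 22 mesenchymal transcription factors, none had a kept region in the gene or within 10 kb. The same held for 15 alveolar and 16 adventitial fibroblast markers, 23 RUNX family and partner genes and 48 chromatin writers and remodellers. With a background share of 2.37%, short lists are often empty, so this says little about any of them. Many of these genes had a Runx1 region in sham, beside 62.3% of all protein-coding genes. All 29 TGF-beta and BMP genes and 22 of the 23 RUNX family and partner genes had one. The fibrotic fibroblast markers had the lowest share among these lists, with 9 of 18. Over all 26 lists, 11 of 600 genes had a kept region.

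In 4 further lists, 1 or 2 genes had a kept region, and no list count was tested. Mrtfb, a coactivator of Srf, was 1 of 17 contractile and Srf genes, with 15.3 at D14 and 5.95 at D56 inside the gene (chr16:13371894-13372345). Eln, the gene of elastin, was 1 of 25 collagen and matrix genes. Its region lay 973 bp beyond the gene with a D14 fold of only 2.37 and a D56 fold of 5.42, and 217 bp from a sham peak. Of 30 Wnt genes, Wnt5b, a non-canonical ligand, had 6.32 and 5.64 near a start, and Tcf7l1, a transcriptional repressor of the pathway, had 4.42 and 5.79 in its gene body. Of 58 DNA repair genes, Rad51b had a weak region 434 bp beyond the gene (3.79 and 4.86), and Palb2 was counted only because the Ndufab1 region lies 5107 bp away.

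Several members beyond the lists encode matrix or signalling proteins; they were chosen after their values were seen. Serpine2, an inhibitor of serine proteases, held a region over its start (chr1:79858288-79858934) with 12.1 at D14 and 5.48 at D56. Plod1, a lysyl hydroxylase of collagen, had 12.52 and 5.23 over its start (chr4:147936383-147936963), 1070 bp from a sham peak. Crtap, a partner of collagen prolyl 3-hydroxylase, had 11.5 and 4.48 within 1 kb of its start. These proteins act on collagen or on matrix proteolysis. Starts of Papss2, which makes the sulfate donor for proteoglycans, of Ecm1 and of the metalloprotease gene Mmp11 also lay in kept regions, with D14 folds of 10.7, 9.25 and 8.38 and D56 folds of 5.13, 3.76 and 4.21. Chrd, the BMP antagonist chordin, had 12.01 and 4.62, and Nkd2, an inhibitor of Wnt signalling, 9.35 and 5.37, both over a start. Pcsk5, a convertase that cleaves secreted precursors, had 19.99 at D14 and a low 3.81 at D56.

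Some genes held more than 1 member. There were 19 protein-coding genes with 2 kept regions in the gene or within 10 kb. Slit3, a guidance ligand of Robo receptors, had one over its start (8.77 and 5.23) and one inside the gene (6.14 and 3.46). Bnc2 and the histone genes were chosen after their values were seen. Bnc2, a zinc-finger gene of mesenchymal cells, had 2 in its gene body with D14 folds of 5.18 and 4.25. Of the histone genes on chromosome 13, H2ac15 and H2bc15 shared one region (9.33 and 5.80), and H3c11, 29027 bp further on, held another (6.54 and 6.14). Only 4 pairs of kept regions lay within 10 kb of each other and 14 within 50 kb, so most members stood alone. By chromosome, the kept share of D14 regions without sham ran from 0.812% (0.442 to 1.49) on chromosome 14 to 2.27% (1.501 to 3.41) on chromosome 19. These are the lowest and highest of chromosomes 1 to 19, picked after their values were seen. Their intervals were barely apart and not adjusted for that choice, so no difference between chromosomes is read from them.

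Most genes with a kept region had other Runx1 regions as well. Of the 489 genes, 386 (78.9%, interval 75.1 to 82.3) also had a sham region within 10 kb, and 327 had a region of all 3 lists. For genes with a D14-only region, 8414 of 11114 (75.7%) had a sham region. For 162 of the 489 genes (33.1%) the kept region was the only D56 region. Kept regions themselves had a median distance of 16207 bp to the nearest sham peak, and D14-only regions 18328.5 bp. Within 500 bp, 44 kept regions (9.48%, interval 7.14 to 12.49) had a sham peak, beside 7.41% of D14-only regions.

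The edges of the rule were close calls. Taf6, a subunit of TFIID, had a kept region 3 bp from a sham peak, and the regions near Col6a2, in Bcl6, near B3gnt2 and in Sgms1 were 16 to 42 bp from one. On the other side, a region 26428 bp from Cdrt4 was left out because 44 bp of it was shared with a sham peak, with folds of 3.41 at D14, 4.47 at D56 and 4.67 in sham. The members nearest to the D56 threshold were at Tmtc2, a mannosyltransferase gene, and Ints14, an Integrator subunit, with D56 folds of 2.78 and 2.84 and a −log10 q of 2.06 each. At D14 these were strong, with 17.6 and 10.4. The strongest D14-only regions had D14 folds of 21.0 to 24.5, above most members; of these 5, only that in Shank2 had a named gene within 100 kb. Farthest from sham were 2 regions with no named gene within 100 kb, on chromosomes 4 and 13, 2167600 and 826112 bp away, and those near Prl, Foxp2 and Tenm4.

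Promoters at kept regions held RUNX hexamers about as often as any promoter. Within 300 bases (250 before to 50 after the start), TGTGGT or TGCGGT on either strand was found in 33 of 146 promoters within 1 kb of a kept region (22.6%, interval 16.6 to 30.0), a set that is 0.727% of the 20085 protein-coding start sites used here. The share was 21.5% over all 20085, 20.9% at D14-only regions and 20.2% at regions in all 3 lists. A match is a description of these letters, not a bound site, and the window misses regions away from starts.

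In base composition these promoters lay between all promoters and those at regions in all 3 lists. Their median GC content was 60.3% and their CpG ratio (observed over expected) 0.73, beside 57% and 0.59 over all promoters, 59.7% and 0.62 at D14-only regions and 63.0% and 0.82 at regions in all 3 lists. The GC box GGGCGG was in 66.4% (58.4 to 73.6), against 47.0% of all, 56% at D14-only regions and 72.6% in all 3 lists. The AP-1 motif TGANTCA was in 3 of 146 (2.05%, 0.701 to 5.87) against 7.06% of all, 7.54% at D14-only regions and 3.78% at regions in all 3 lists. The TEAD motif GGAATG was in 6.85% (3.76 to 12.1) against 13.4%, 13.7% and 10.8%. For both motifs the share at regions in all 3 lists lay inside the interval at kept regions. For the ETS core CCGGAA (21.9% against 19.1% of all), CCAAT (32.9% against 38.1%) and TATAAA (12.3% against 12.7%) the interval covered the share over all promoters. A second start on the opposite strand lay within 1 kb upstream of 17 of 146 (11.6%, 7.40 to 17.9), against 2.83% at D14-only regions, 5.71% at regions in sham and D14, 17.1% at regions in all 3 lists and 8.21% of all.

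**Figure D5:**
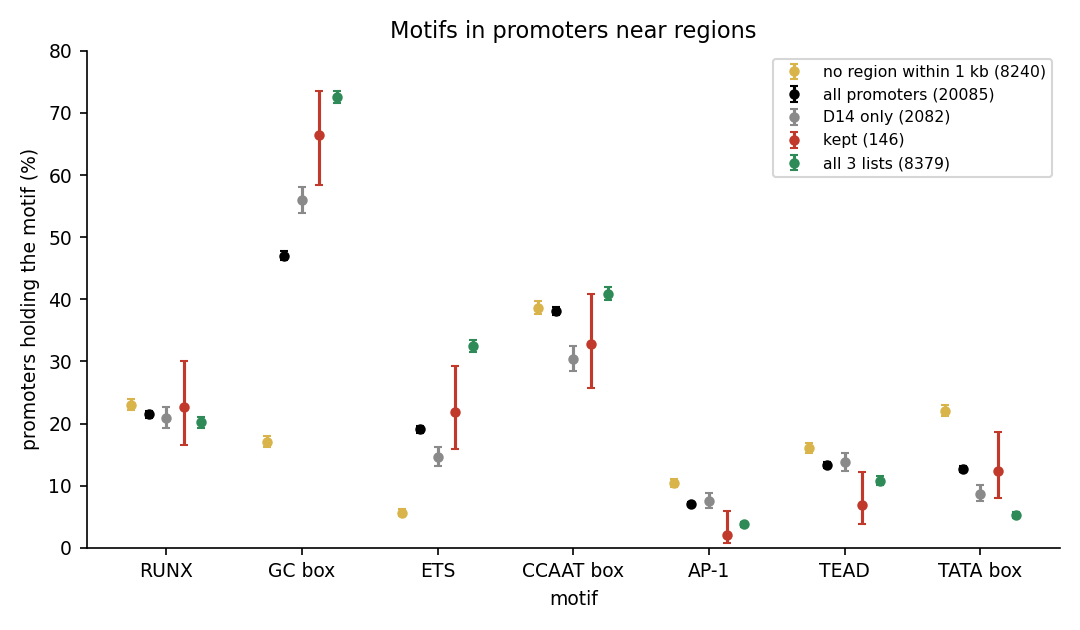
Share of 300-base promoters that hold a motif on either strand (vertical, %), for 7 motifs and 5 sets of promoters (numbers in brackets). Points are shares and bars 95% Wilson intervals. The RUNX share at kept regions (22.6%) overlaps all the other sets, while its GC-box share (66.4%) lies between those of D14-only regions and regions in all 3 lists.

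The number of members depended on how peaks were filtered. With peaks of fold 5 or more in all 3 lists, 2509 regions met the rule, and with lists of equal length 1211 (strongest by p) or 1770 (strongest by fold). Of the 464, 185 were met by the 1211 and 187 by the 1770. Only 9.37% of the 2509, 15.3% of the 1211 and 10.6% of the 1770 met one of the 464. The rest lay in merged regions that held a sham peak before filtering. The start-site share of members stayed above that of D14-only regions in each setting. Regions in all 3 lists were themselves often near a start (54.9%), so this says little about the 464.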

How the data were processed

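Groups came from the sample titles. Reads had been mapped to mouse (build mm10), and the tools named are BWA, SAMtools and MACS2, per the submitters' processing notes. Each ChIP library was compared with its input by MACS 2.0.10.20120913, per the file headers, at a q-value cutoff of 0.01, with the larger library scaled to the smaller. The deposited lists give pileup (a signal), −log10 p-values and q-values, and fold enrichment (a ratio), made by the authors per library, and nothing was pooled. The D56 input was the smallest.

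Peaks were merged and annotated here with Python 3.11.15 (pandas 2.3.3, statsmodels 0.14.6) and RefSeq gene and promoter tables of GRCm38.p6; steps were tested on simulated data. A gene was counted with a region within 10 kb. No test across conditions was possible. Members and gene lists were chosen with earlier results of these data known. Named genes are the nearest within 100 kb of the strongest, weakest, widest, nearest-to-sham and farthest members, and list genes with a member; others are marked. Alternatives changed overlap, sham distance, merging, thresholds, list length, gene windows and motifs.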

Additional observations from a re-analysis of the deposited data

How the results depend on the processing

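The start-site share of kept regions stayed above that of D14-only regions under every alternative in which it was computed. Only this difference has a sign that could reverse. The other results could only stay near the main value or move from it. The main count of 464 (1.42%) became 947 (2.54%) with an overlap of 50% of each peak and 898 (2.63%) with summits within 200 bp, both counted over D14 peaks. It became 272 (0.981%) with a −log10 q of 5 or more at D14 and D56, 2509 (11.7%) with a fold of 5 or more, and 1211 (32.6%) and 1770 (36.6%) with equal list lengths by p and by fold. Under the other 4 alternatives it was 333 to 454. The 454, from a −log10 q of 5 or more in all 3 lists, is close to the main count, but only 59.9% of them met one of the 464. The rest of the 454 lay in merged regions with a sham peak in the full lists. Of the 947, 898, 2509, 1211 and 1770, only 29.5%, 51.0%, 9.37%, 15.3% and 10.6% met one of the 464. Except in the summit setting, where peaks need not overlap, the rest lay in merged regions with a sham peak in the full lists. These larger counts are therefore not a gain of regions free of any sham peak. The gene-end share of 39.4% became 50.7% (summits), 44.5% (−log10 q of 5 in all lists), 56.8% (fold of 5), 56.8% and 62.1% (equal lengths), 33.4% within 500 bp, 49.6% within 2.5 kb and 33.6% for protein-coding genes.

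Settings added after seeing the data moved the start-site share to 36.4% (overlap of 50%), 41.9% (summits), 48.9% (fold of 5), 48.7% and 54.2% (equal lengths) and 38.2% (2.5 kb). Its difference from D14-only regions became 27.2 (summits), 29.9 (fold of 5), 21.7 and 26.7 (equal lengths) percentage points. Genes with a member were 287 by gene body only and 1056 within 50 kb, and the RUNX share was 15.8% for TGTGGT alone. The wider windows and the shorter motif list change these numbers by construction. Under the filter settings the members themselves changed, as given above, and what moved each share was not tested. No paired analysis was possible because each condition had 1 ChIP library.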

Other observations

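The X chromosome lay outside the rule; there, 13 of 511 regions with a D14 peak and no sham peak also had a D56 peak. Of the miRNA hairpins in RefSeq, 11 lay within 10 kb of a kept region and none inside one. No share over all hairpins is at hand to set beside this count, so nothing is read from it. The nearest was Mir8109, at 1560 bp from a region with folds of 8.37 at D14 and 5.15 at D56, followed by Mir6376 at 1763 bp (10.1 and 4.72). They were chosen after their values were seen.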
